A study of Mus musculus with 4 samples.

Results

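Guanylate-binding proteins (GBPs) and immunity-related GTPases (IRGs) are 2 families of GTP-hydrolysing proteins that mouse macrophages make in large amounts after exposure to interferons. The set described here holds 9 genes: Gbp2, Gbp3, Gbp6, Gbp7 and Gbp9 of the GBP family, and Irgm1, Irgm2, Igtp and Iigp1 of the IRG family. They were taken by symbol, with earlier results of these data known. Each of the 9 had a value in each library, and they stand among 23259 symbols with values. All 9 also passed the filter on low values, which asked for 1 FPKM or more on average.

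The RNA came from macrophages grown from the bone marrow of C57BL/6 mice aged 7 weeks and treated with IL-4, the cytokine of alternative activation, for 24 h. There were 2 libraries labelled Sema6D-/-, a genotype in which the gene for the membrane semaphorin Sema6D is disrupted, and 2 labelled wild type. Every library came from IL-4-treated cells, so no unstimulated and no interferon-treated sample serves as a scale for the members. The sample titles begin with W under the label Sema6D-/- and with K under the label wild type. Libraries were grouped by genotype as labelled; if the titles rather than the genotypes were right, each sign below would turn round. Nothing in the labels says that the libraries of 1 label came from separate mice or cultures, so the spread behind each p-value is that of these samples alone and may be technical.

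Values are FPKM, sequenced fragments scaled to transcript length and to the size of the library, so levels can be compared between genes per length. Depth, estimated from the lowest values, was about 8000000 and 8300000 fragments in the libraries labelled Sema6D-/- and 8800000 and 8900000 in those labelled wild type. Sema6d itself was near the detection limit under either label, at 0.106 and 0.315 FPKM under Sema6D-/- and 0.166 and 0.389 under wild type. These levels overlap and do not check the genotype. Macrophage identity was plain in every library: Csf1r, the macrophage growth factor receptor gene, lay between 511 and 519 FPKM under Sema6D-/- and between 545 and 561 under wild type, and Cd68 between 1519 and 1551 and between 1193 and 1325.

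GBPs coat the vacuoles of invading microbes, where they help to open the membrane and to set off inflammasomes. IRGs act on the same vacuoles and fall into regulators and effectors. The regulators, Irgm1, Irgm2 and Igtp (also called Irgm3), sit on the cell's own membranes and hold the effectors, among them Iigp1 (Irga6), in an inactive state. In mouse cells, transcription of both families is switched on mainly by interferon gamma, with IRF1 as an activator, and also by type I interferon through a complex that holds STAT2 and IRF9. That complex and the IRFs read a promoter element named ISRE, and an element named GAS serves the response to interferon gamma.

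Promoters of members are shown first, searched for the core letters of the ISRE and GAS elements. RefSeq promoter windows of the GRCm38.p6 assembly, from 250 bases before to 50 bases after a gene's annotated start, were matched by symbol for 6 of the 9 members: Gbp2, Gbp3, Gbp7, Irgm1, Irgm2 and Igtp. Windows for Gbp6, Gbp9 and Iigp1 were not used here. The stretches of 80 bases below are written 5′ to 3′ along the gene's own strand. Capitals mark each match to the ISRE core and to the GAS core. The ISRE core was searched as GAAA, any 2 bases and GAAA again, on both strands, and so reads TTTC, any 2 bases and TTTC on the opposite strand. The GAS core was searched as TTCNNNGAA, which reads the same on either strand.
Gbp2, chr3:142620564-142620643, plus strand: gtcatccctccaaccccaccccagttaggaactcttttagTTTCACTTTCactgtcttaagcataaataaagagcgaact
Gbp3, chr3:142559959-142560038, plus strand: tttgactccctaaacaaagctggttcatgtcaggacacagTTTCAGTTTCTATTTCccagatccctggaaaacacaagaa
Gbp7, chr3:142530243-142530322, plus strand: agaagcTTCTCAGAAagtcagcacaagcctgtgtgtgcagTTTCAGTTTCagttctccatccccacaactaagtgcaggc
Irgm1, chr11:48871411-48871490, minus strand: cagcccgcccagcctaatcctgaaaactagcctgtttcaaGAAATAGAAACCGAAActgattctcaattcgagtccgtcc
Irgm2, chr11:58214873-58214952, plus strand: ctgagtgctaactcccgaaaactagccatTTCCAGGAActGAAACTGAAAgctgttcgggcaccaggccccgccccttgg
Igtp, chr11:58199482-58199561, plus strand: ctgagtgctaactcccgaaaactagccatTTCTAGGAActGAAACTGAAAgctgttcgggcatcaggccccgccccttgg

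All 6 members with a window held at least 1 ISRE core, against 3.99% of the 27025 genes with a window. The motif was also common in the other GBP and IRG genes, in 8 of the 11 with a window (72.7%). The windows of Gm5431, Ifi47 and 9930111J21Rik2 held neither motif. Of these, Gm5431 and Ifi47 were lower under the label Sema6D-/-, as given below. Gm12250, which was also lower, held the ISRE core. The match began 59 bases before the annotated start in Gbp2, 53 in Gbp7, 64 in Irgm2 and 34 in Igtp. Gbp3 and Irgm1 each held 2 overlapping matches, beginning 45 and 39 bases before the start in Gbp3 and 30 and 24 bases before it in Irgm1. A further Gbp3 window, at a second annotated start, held neither motif.

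The GAS core was found in 3 of the 6, Gbp7, Irgm2 and Igtp, against 9.55% of all genes with a window and 5 of 11 other GBP and IRG genes (45.5%). In Irgm2 and Igtp it ended 2 bases before the ISRE core, and the stretches of these neighbouring genes are nearly the same letter for letter. Gbp7 held 2 GAS cores, beginning 106 and 87 bases before its start, of which the nearer is in the stretch above. Among tested genes with a window, the ISRE core stood in 11.1% of the 343 that were lower under the label Sema6D-/-. It stood in 4.2% of the 357 that were higher and 3.93% of all 7349. The members and other family genes were not taken out of these groups. The GAS core stood in 7.87%, 8.12% and 8.3% of the same groups. A match is a description of these letters and does not show that a factor binds there.

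**Figure D1:**
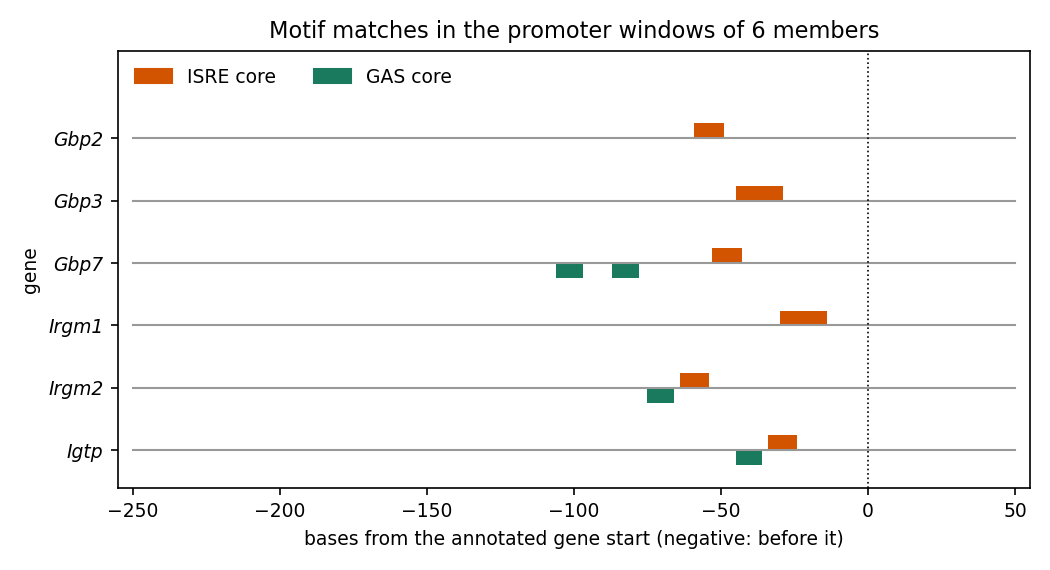
Positions of ISRE core (orange) and GAS core (green) matches in the RefSeq promoter windows of 6 members. The x axis gives bases from the annotated start, and each match spans its own length. All ISRE cores lie within 64 bases before the start, and the 3 members with a GAS core have it farther from the start than the ISRE core.

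The comparison asked whether the GTPase genes differ between the labels under IL-4. All 9 members were at lower values in the libraries labelled Sema6D-/-, and 6 of them passed the test: Gbp2, Gbp3, Gbp9, Irgm1, Irgm2 and Igtp. Of the 10115 genes tested, 4.91% were lower by the same rule, an adjusted p under 0.05 from limma on log2(FPKM + 1). Because the members were chosen with earlier results of these data known, this contrast describes them and is not an independent test. The members' median difference was -0.61 in log2(FPKM + 1), Sema6D-/- minus wild type, against 0.00 over all tested genes. For all 9 members, both values under Sema6D-/- were below both under wild type, which held for 27.4% of tested genes. No member was higher, while 4.8% of tested genes were, and 9.72% of tested genes passed in either direction. Both values were higher under Sema6D-/- for no member and for 28.8% of tested genes.

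Levels differed between members far more than between labels. Irgm1 was the most abundant in each of the 4 libraries, followed by Gbp2, Igtp, Irgm2, Gbp3, Gbp9, Gbp7, Iigp1 and Gbp6, and this order was the same in all 4. Irgm1 alone made up 49.2% and 48.1% of the members' summed FPKM under the label Sema6D-/- and 45.0% and 46.9% under wild type. The sum of the 9 was 109 and 125 FPKM under Sema6D-/- and 184 and 197 under wild type. Neighbours in the order of levels are close under Sema6D-/- for Gbp2, at 16.1 and 19 FPKM, and Igtp, at 15.6 and 15.8, whose ranges nearly touch. The ranges of Gbp3 and Gbp9, and those of Iigp1 and Gbp6, overlap under Sema6D-/- and are apart under wild type.

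**Figure D2:**
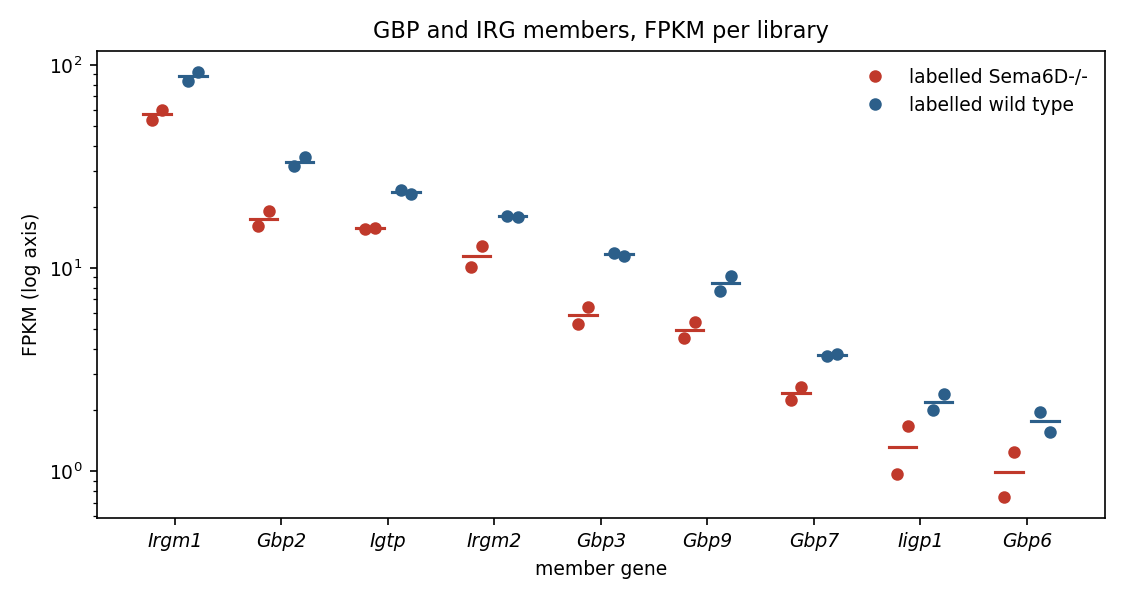
FPKM (log axis) of the 9 members in each library, ordered by their wild type mean. Points are single libraries and short lines are means of 2 libraries, red for the label Sema6D-/- and blue for wild type. In every gene both red points lie below both blue points.

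Among the GBPs of chromosome 3, Gbp2 had the highest level. Its protein carries a lipid anchor and gathers at the vacuole of Toxoplasma. Gbp2 (chr3:142620663-142638008) was at 16.1 and 19 FPKM under Sema6D-/- and at 31.8 and 35.0 FPKM under wild type. The groups do not overlap, and the means of 17.5 ± 2.0 and 33.4 ± 2.3 FPKM (SD, n = 2 libraries each) stand at a ratio of 0.525. The difference was -0.89 ± 0.10 (SE) in log2(FPKM + 1), with an adjusted p of 0.00756.

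Gbp3 (chr3:142560016-142573213), a neighbour of Gbp2 in the same gene cluster, was at 5.29 and 6.42 FPKM under Sema6D-/- and at 11.9 and 11.4 FPKM under wild type. Both Sema6D-/- values are lower by a wide margin, and the ratio of the means, 5.85 ± 0.79 over 11.7 ± 0.33 FPKM (SD, n = 2 each), was 0.501. Its difference matched that of Gbp2, -0.89 ± 0.10 (SE), adjusted p = 0.00937. The level of Gbp3 relative to Gbp2 was 0.329 and 0.338 under Sema6D-/- and 0.375 and 0.327 under wild type, ranges that overlap.

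Gbp7 (chr3:142530336-142550151), which in mouse macrophages takes part in assembling the phagocyte oxidase, was the lowest of the 3 on this chromosome. It was at 2.23 and 2.61 FPKM under Sema6D-/- and at 3.68 and 3.78 FPKM under wild type. The groups are apart, yet the difference of -0.47 ± 0.11 (SE) did not pass the test (adjusted p = 0.0618). By the estimated depth these values rest on about 101 and 122 fragments under Sema6D-/- and 182 and 189 under wild type, counting every annotated exon.

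The other GBP members lie in the cluster on chromosome 5. Gbp9 (chr5:105076464-105110357) was at 4.5 and 5.42 FPKM under Sema6D-/- and at 7.72 and 9.10 FPKM under wild type. It fell by 0.66 ± 0.12 (SE) in log2(FPKM + 1), adjusted p = 0.0313, with non-overlapping groups and a ratio of means of 0.59. Gbp6 (chr5:105270702-105295871) was the lowest member, at 0.75 and 1.24 FPKM under Sema6D-/- and 1.96 and 1.56 FPKM under wild type. The gap between its nearest libraries is small, and its difference of -0.47 ± 0.18 (SE) did not pass (adjusted p = 0.182).

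Read sharing limits some of these levels, since near-identical copies can exchange fragments and the treatment of such fragments is not given in the sources used here. Of all 50-base stretches in the GENCODE transcripts of Gbp6, 70.7% also occur in a transcript of another gene, so the level of Gbp6 is uncertain. The largest overlap was with Gm43302, at 65%, a gene not analysed here, and the next with Gbp10, at 45.9%. Gbp10 was listed at 0 in 3 libraries and at 0.032 FPKM in Sema6D-/- replicate 2. For the other GBP members the share was 2.03% in Gbp2, 3.75% in Gbp3, 8.05% in Gbp9 and 12.7% in Gbp7. Among the IRG members it was 0.379% in Irgm1, 1.69% in Iigp1, 7.83% in Irgm2 and 11.8% in Igtp, and all of the Igtp share lay in Irgm2.

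The 3 IRG regulators lie on chromosome 11 and all passed the test. Irgm1 (chr11:48865245-48871420), which mouse macrophages need for control of mycobacteria and for autophagy, was at 53.8 and 60.2 FPKM under Sema6D-/- and at 82.9 and 92.2 FPKM under wild type. The means of 57.0 ± 4.5 and 87.6 ± 6.6 FPKM (SD, n = 2 each) stand at a ratio of 0.651, and no library of 1 label reaches the other. Its difference was -0.61 ± 0.08 (SE), adjusted p = 0.0126.

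Igtp (chr11:58199556-58207592), whose protein lies on the endoplasmic reticulum, was at 15.6 and 15.8 FPKM under Sema6D-/- and at 24.1 and 23.2 FPKM under wild type. The replicates of each label lie close together, and the difference of -0.56 ± 0.06 (SE) had the smallest adjusted p of the 9, 0.00688. Irgm2 (chr11:58214977-58222783), its neighbour, was at 10.1 and 12.8 FPKM under Sema6D-/- and at 18.1 and 17.9 FPKM under wild type. It fell by 0.61 ± 0.11 (SE), adjusted p = 0.0305, with more spread between its Sema6D-/- libraries than between its wild type ones. The level of Irgm2 relative to Igtp was 0.652 and 0.811 under Sema6D-/- and 0.75 and 0.771 under wild type, so the labels overlap in this ratio.

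The effector Iigp1 (chr18:60373616-60392634), which disrupts the Toxoplasma vacuole, was low. It was at 0.966 and 1.67 FPKM under Sema6D-/- and at 1.99 and 2.41 FPKM under wild type, or about 45 and 81 against 102 and 125 fragments. The Sema6D-/- libraries differ from each other by more than the nearest libraries of the labels do. Its difference of -0.48 ± 0.19 (SE) did not pass (adjusted p = 0.195).

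Taken by family, 3 of 5 GBP members and 3 of 4 IRG members passed, all lower, with median differences of -0.66 and -0.59. Among all tested genes 4.91% were lower. The summed FPKM was 28.9 and 34.7 for the GBP members under Sema6D-/- and 57.1 and 60.9 under wild type. For the IRG members it was 80.5 and 90.5 under Sema6D-/- and 127 and 136 under wild type. Gbp2 stood at 0.299 and 0.315 of the Irgm1 level under Sema6D-/- and at 0.383 and 0.38 of it under wild type. The 95% intervals of their differences, -1.13 to -0.66 for Gbp2 and -0.81 to -0.41 for Irgm1, overlap, and whether the families differ in their response was not tested. The members passing the test were -0.56 to -0.89 in log2(FPKM + 1). The 3 that did not pass, all under 4 FPKM, were -0.47 to -0.48 on this scale, which understates the change of low genes. Their ratios of the means, Sema6D-/- over wild type, were 0.566 to 0.648, against 0.501 to 0.663 for the members that passed.

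**Figure D3:**
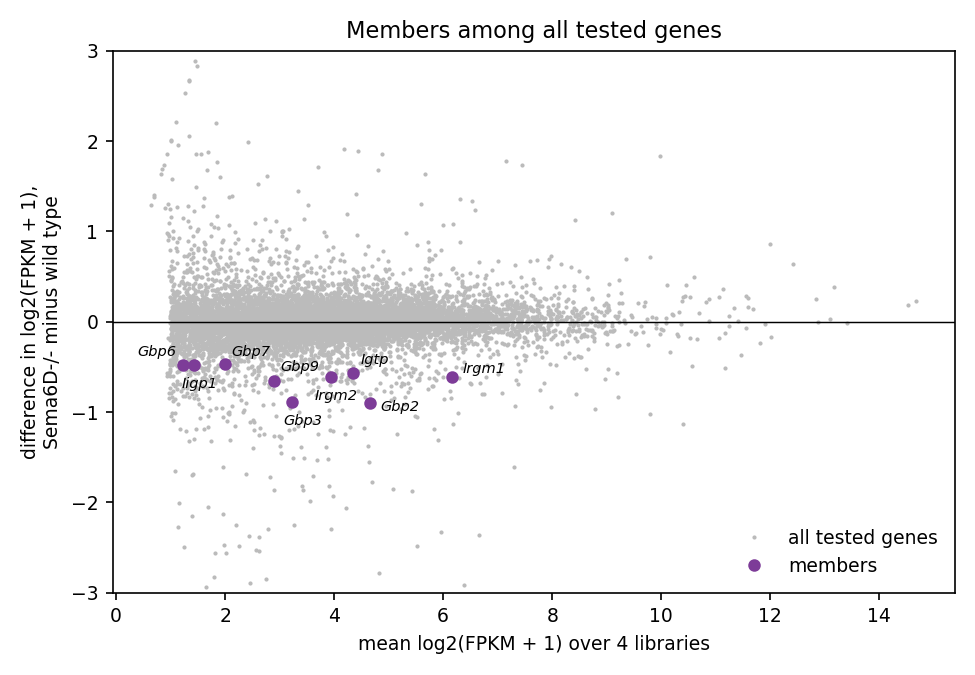
Difference in log2(FPKM + 1), Sema6D-/- minus wild type, against the mean log2(FPKM + 1) over 4 libraries for all 10115 tested genes (grey) and the 9 members (purple). The 35 genes beyond 3 in either direction lie outside the axis. The members lie at or below the lower edge of the dense cloud, from -0.47 for Gbp7 to -0.89 for Gbp2, and many grey genes lie farther down.

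The members were thus among the lower genes of the comparison without being its extremes. A difference at or below that of Gbp7, the member nearest to 0 in log2(FPKM + 1), was found for 4.65% of tested genes. One at or below that of Gbp2 was found for 1.41%.

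Single libraries bear on these calls, which rest on 2 libraries a label. Without Sema6D-/- replicate 1, in which every member had its lowest value, no member passed the test by limma. All 9 differences stayed below 0 in that fit, with a median of -0.53. Adjusted p-values in that fit were 0.0558 for Gbp2, 0.0641 for Gbp3, 0.0762 for Igtp, 0.0974 for Irgm1, 0.111 for Irgm2 and 0.188 for Gbp9. Without Sema6D-/- replicate 2, 3 passed (Gbp2, Gbp3 and Irgm2), and leaving out wild type replicate 1 or 2 kept 4 (Gbp2, Gbp3, Irgm1 and Igtp). Over all tested genes the share that was lower also shrank, to 0.86% without Sema6D-/- replicate 1, 1.62% without Sema6D-/- replicate 2, 2.87% without wild type replicate 1 and 2.57% without wild type replicate 2, against 4.91% with all 4 libraries. Differences of the 6 called members then ranged from -1.01 to -0.78 for Gbp2, -1.01 to -0.77 for Gbp3, -0.77 to -0.55 for Gbp9, -0.69 to -0.53 for Irgm1, -0.77 to -0.46 for Irgm2 and -0.59 to -0.54 for Igtp. Gbp9 passed in none of these 4 fits.

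**Figure D4:**
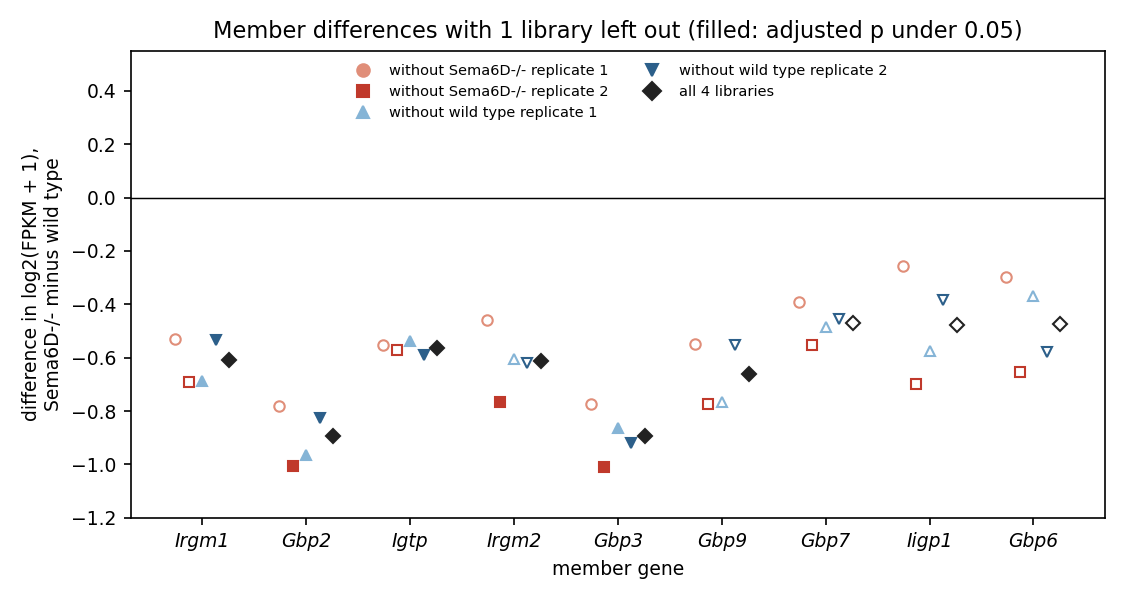
Member differences in log2(FPKM + 1), Sema6D-/- minus wild type, with all 4 libraries (black) and with each library left out in turn. Filled symbols had an adjusted p under 0.05. All symbols lie below 0, and those without Sema6D-/- replicate 1 are open for every member.

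Other genes of the GBP and IRG families were examined from a list of 22 symbols, of which 20 had a value and 7 passed the filter on low values. Of the 7, 3 were lower, none was higher, and the median difference was -0.56. Among all tested genes 4.91% were lower and 4.8% higher. Gm12250, known as Irgb10, whose protein helps to release bacterial ligands for inflammasomes, was at 10.1 and 11.8 FPKM under Sema6D-/- and at 17.9 and 18.6 under wild type (difference -0.70 ± 0.09 (SE), adjusted p = 0.0125). It lies beside Igtp and Irgm2 and shares none of its 50-base stretches with another gene. Gm5431 was at 7.56 and 8.72 FPKM under Sema6D-/- and 13.9 and 15.3 under wild type (adjusted p = 0.0108), with 37.3% of its stretches shared. Ifi47, the IRG gene Irgd, fell least of the 3, with 38.2 and 39.8 FPKM under Sema6D-/- and 47.1 and 53.5 under wild type (difference -0.36 ± 0.07 (SE), adjusted p = 0.0431). Without Sema6D-/- replicate 1 none of the 3 passed, with adjusted p-values of up to 0.237. Gm12250 was also not called without wild type replicate 2, and Ifi47 also not without Sema6D-/- replicate 2 or wild type replicate 2.

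The remaining family genes that passed the filter did not pass the test. Gbp5, a GBP that supports inflammasome assembly, was at 0.665 and 0.566 FPKM under Sema6D-/- and at 1.22 and 1.57 under wild type (adjusted p = 0.0914). Tgtp2 (Irgb6) was at 0.633 and 1.34 FPKM under Sema6D-/- and at 1.85 and 2.19 under wild type (adjusted p = 0.141), and it shares 86.6% of its stretches, nearly all with Tgtp1. Gm4951, on chromosome 18 with Iigp1, and 9930111J21Rik1 overlapped between labels (adjusted p = 0.377 and 0.46).

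Below the filter, Gbp2b, listed under its older symbol Gbp1, was listed at 0 and at 0.041 FPKM under Sema6D-/- and at 0.424 and 0.866 under wild type. Gbp4 was at 0.077 and 0.124 FPKM under Sema6D-/- and at 0.566 and 0.415 under wild type. In a fit without a filter the 2 had adjusted p-values of 0.104 and 0.0686. Gvin1 and Gm4070, of the very large interferon-inducible GTPases, were at 0.257 and 0.259 and at 0.291 and 0.294 FPKM under Sema6D-/-, and at 0.477 and 0.532 and at 0.455 and 0.447 under wild type. They did not pass either (adjusted p = 0.0973 and 0.183). Gm12185 and 9930111J21Rik2 were below 0.6 FPKM with groups apart, Gbp8 and F830016B08Rik were below 0.9 FPKM with overlapping groups, and Gbp11, Tgtp1, Irgc1 and Gm4841 were listed at 0 in at least 2 libraries.

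**Figure D5:**
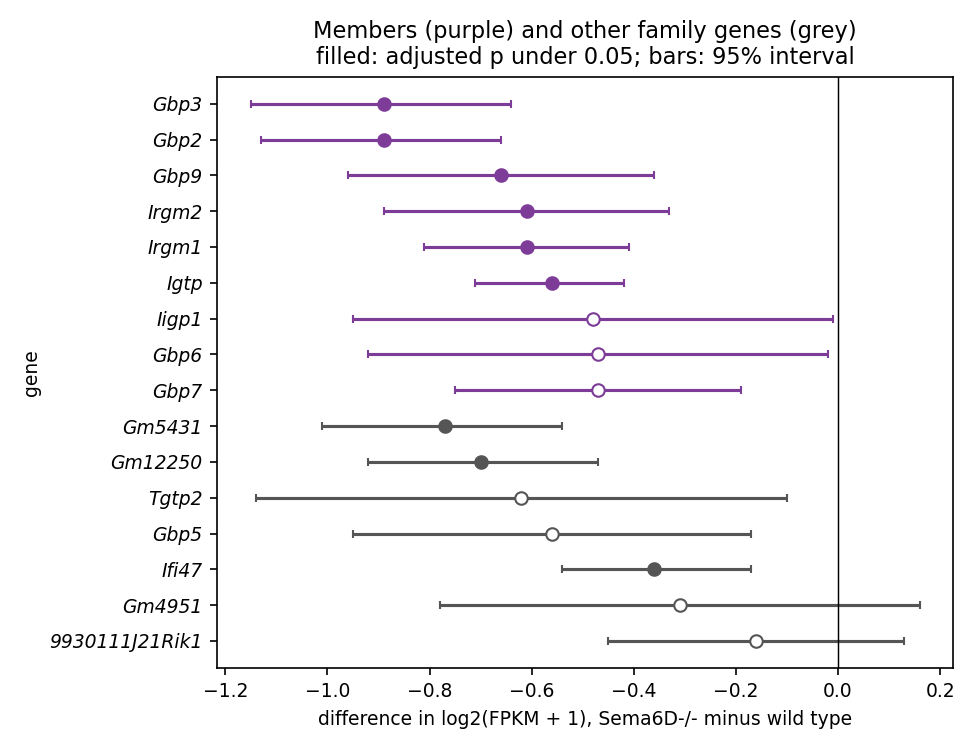
Difference in log2(FPKM + 1), Sema6D-/- minus wild type, with 95% intervals, for the 9 members (purple) and the 7 other family genes that passed the filter (grey). Filled points had an adjusted p under 0.05. All 16 points lie below 0, from -0.89 for Gbp2 and Gbp3 to -0.16 for 9930111J21Rik1.

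The members sit in 5 gene clusters, and the nearest tested genes outside the families on either side of each cluster were read for comparison. Of these 10 genes none passed the test by limma, and their differences lay between -0.42 and 0.24. An unadjusted p under 0.05 from limma was found for 2 of them and for 2535 of all 10115 tested genes. Beside the chromosome 3 GBP cluster, Pdlim5, a cytoskeletal adaptor gene, was at 36.8 and 39.1 FPKM under Sema6D-/- and 30.8 and 33.0 under wild type. Gtf2b, a general transcription factor gene on the other side, overlapped between labels, with a difference of 0.06. Mrpl22, only 4.26 kb from Gm12250, was at 12.3 and 13.6 FPKM under Sema6D-/- and 15.4 and 13.7 under wild type (adjusted p = 0.343). The other genes were Zfp951 and Lrrc8b on chromosome 5, Trim7, Zfp62 and Zfp692 on chromosome 11, and Isoc1 and Dctn4 on chromosome 18. Apart from Mrpl22 and Trim7 (14.1 kb), they lay 68.7 to 152 kb from their cluster, except Isoc1, which was 1532 kb away. Isoc1 and Pdlim5 were the ones with an unadjusted p under 0.05.

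Genes upstream of the members were read next. For this list and those that follow, the shares over all tested genes were 4.91% lower and 4.8% higher. On the list of 17 genes for the interferon gamma receptor and its signalling, 15 were tested, 4 were lower and 2 higher, and the median difference was -0.16. Nlrc5, the activator of class I antigen presentation genes, was at 5.70 and 6.55 FPKM under Sema6D-/- and 9.81 and 10.2 under wild type (adjusted p = 0.0167). The kinase gene Jak2 was also lower (23.5 and 24.2 FPKM under Sema6D-/-, 33.4 and 30.3 under wild type, adjusted p = 0.0244). Ifngr2, a receptor chain gene named after its value was seen, was at 98.5 and 102 and at 117 and 116 FPKM (adjusted p = 0.0404).

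Irf1, a known activator of GBP transcription, went the other way, at 96.9 and 92.9 FPKM under Sema6D-/- and 79.7 and 76.4 under wild type (difference 0.28 ± 0.05 (SE), adjusted p = 0.0284). Irf8, named after its value was seen, was at 77.3 and 77.2 FPKM under Sema6D-/- and 65.6 and 67.9 under wild type (adjusted p = 0.0496). Without Sema6D-/- replicate 1 none of this list passed. Jak2 passed only without wild type replicate 2, and Nlrc5, Irf1, Irf8 and Ifngr2 in none (highest adjusted p = 0.226). Ifng itself, the gene for interferon gamma, was listed at 0 in both Sema6D-/- libraries and at 0.101 and 0.0984 FPKM under wild type, a level of very few fragments.

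On the list for type I interferon signalling, 7 of 14 tested genes were lower and none higher, with a median difference of -0.30. Irf7, which amplifies type I interferon production, was at 77.5 and 102 FPKM under Sema6D-/- and 278 and 270 under wild type (difference -1.61 ± 0.13 (SE), adjusted p = 0.00327). Usp18, a negative regulator of the type I receptor, was at 12.2 and 15.3 FPKM under Sema6D-/- and 43.2 and 40.8 under wild type (adjusted p = 0.00246). Stat2 was at 22.4 and 29.3 FPKM under Sema6D-/- and 50.6 and 51.7 under wild type (adjusted p = 0.0119). Ddx58, the RNA sensor RIG-I, was lower too (adjusted p = 0.00513), but not without Sema6D-/- replicate 1 (adjusted p = 0.0543). Irf9, named after its value was seen, was at 29.7 and 35.6 and at 43.9 and 43.7 FPKM (adjusted p = 0.0494), and passed only without Sema6D-/- replicate 2. The interferon genes Ifnb1 and Ifna4 were listed at 0 in all 4 libraries. Without Sema6D-/- replicate 1, 3 of this list were lower, and 6, 4 and 4 without Sema6D-/- replicate 2, wild type replicate 1 or wild type replicate 2.

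By the root mean square distance between centred log2(FPKM + 1) profiles over the 4 libraries, the genes most like the members' mean profile included Fbxw17, Bhlhe41, Ifih1, Nlrc5 and Il4i1, with distances from 0.0194 to 0.0273. The members' mean profile was -0.43 and -0.20 in the Sema6D-/- libraries and 0.29 and 0.34 in the wild type libraries, and the comparison covered the 7681 genes averaging 5 FPKM or more. Ifih1, the RNA sensor MDA5, was at 10.7 and 13.4 FPKM under Sema6D-/- and 18.9 and 19.8 under wild type. Il4i1, an amino acid oxidase gene, was at 65.8 and 76.0 FPKM under Sema6D-/- and 113 and 114 under wild type. Over 4 libraries of 2 labels, likeness of profile mostly reflects the size of the label difference.

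Genes that act with the GTPases were taken from lists by role. Of 12 enzymes of protein prenylation, which attach the lipid anchor of some GBPs, none passed by limma, and the median difference was -0.02. Only 1 had an unadjusted p under 0.05, against 2535 of all 10115 tested genes. Ggps1, which makes a lipid donor, was at 8.34 and 8.59 FPKM under Sema6D-/- and 10.1 and 9.91 under wild type (adjusted p = 0.128), and Fnta, Fntb and Rabggta had adjusted p-values of 0.216 to 0.292. Of 18 tested genes of ubiquitin and ATG8 conjugation, which mark vacuoles for GTPase recruitment, 3 were higher and none lower. They were Sqstm1 (450 and 459 FPKM under Sema6D-/-, 344 and 362 under wild type, adjusted p = 0.0121), Atg12 (38.3 and 38.9 against 31.6 and 31.7, adjusted p = 0.0277) and Ube2l3 (74.6 and 71.6 against 60.7 and 56.6, adjusted p = 0.0295). Atg3 was at 46.2 and 44.1 FPKM under Sema6D-/- and 38.1 and 39.1 under wild type and did not pass (adjusted p = 0.0607).

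Of 8 tested inflammasome genes downstream of GBPs, 1 was lower and 1 higher. Gsdmd, the pore-forming protein of pyroptosis, was at 62.9 and 65.7 FPKM under Sema6D-/- and 80.2 in each wild type library (adjusted p = 0.0181). Ninj1, which ruptures the membrane of dying cells, was at 305 and 317 FPKM under Sema6D-/- and 250 and 248 under wild type (adjusted p = 0.0134). Il18 and Pycard did not pass (adjusted p = 0.0983 and 0.122). When Sema6D-/- replicate 1 or 2 was left out, no vacuole conjugation or inflammasome gene passed (highest adjusted p for those called, 0.188). Without wild type replicate 1, Atg12 and Gsdmd did not pass either, and without wild type replicate 2, Atg12, Ube2l3 and Gsdmd did not.

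Markers of other cells that make or respond to interferon were checked, since in bulk RNA fewer cells of a type and less RNA per cell cannot be told apart. Of 15 T and NK cell markers, the cells that make most interferon gamma, 14 had a value and all were under the filter. Their summed level was 1.84 and 2.29 FPKM under Sema6D-/- and 1.40 and 1.28 under wild type, with Ncr1 and Gzma at 0 in all 4. B and plasma cell markers summed to 1.14 and 0.214 FPKM under Sema6D-/- and 0.764 and 0.573 under wild type, with Pax5 and Blk among those at 0 in all 4. Of 9 macrophage markers tested, 3 were lower (Cd14, Itgam and Lyz2) and 1 was higher (Emr1, now Adgre1), and without Sema6D-/- replicate 1 only Cd14 was called. The list summed to 5362 and 5388 FPKM under Sema6D-/- and 5976 and 5688 under wild type.

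Neutrophil markers moved in the same libraries, mostly upward, and their part in the GTPase differences was not tested. Of 12 tested, 6 were higher and 2 lower, and the list summed to 811 and 671 FPKM under Sema6D-/- and 294 and 273 under wild type. S100a8 and S100a9 were at 295 and 232 and at 343 and 289 FPKM under Sema6D-/-, and at 72.2 and 79.1 and at 98.8 and 89.6 under wild type (adjusted p = 0.00208 and 0.00142). Ngp and Lcn2 were higher too (adjusted p = 0.00286 and 0.00545), and the lower ones, Csf3r and Mmp9, were named after their values were seen (adjusted p = 0.00756 and 0.0290). Without Sema6D-/- replicate 1 or 2, Lcn2 and Mmp9 did not pass (highest adjusted p = 0.0749 and 0.197). Of 3 tested dendritic cell markers, Bst2 and Itgax were lower (adjusted p = 0.00164 and 0.0110) and Ccr7 was not called (0.591). Itgax did not pass without Sema6D-/- replicate 1 or 2 (highest adjusted p = 0.0974). The dendritic cell list summed to 561 and 592 FPKM under Sema6D-/- and 857 and 875 under wild type. Of its 10 markers, 7 were under the filter. In that sum Bst2 made up 255 and 270 FPKM under Sema6D-/- and 454 and 466 under wild type. Itgax made up 304 and 320 FPKM under Sema6D-/- and 402 and 407 under wild type. Bst2 is itself an interferon-induced gene, macrophages express Itgax, and the part of either in the GTPase differences was not tested. Stromal markers were low, with sums of 6.61 to 9.11 FPKM under Sema6D-/- and 7.13 to 12.1 under wild type, and Dcn, Col1a1 and Col1a2 were not called (adjusted p = 0.569 to 0.975).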

How the data were processed

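The authors deposited 1 table per library with 23284 gene symbols and an FPKM value each, on the build mm10. Cuffnorm 2.2.1, SAMtools 0.1.19, Bowtie2 2.2.3 and TopHat2 2.0.13 were named, per the submitters' processing notes. The libraries were strand-specific, per the labels' protocols. Neither annotation nor strand setting is given in the sources used here. In all 4 files 25 symbols held no value. An exact 0 can be a failed estimate: Gapdh was listed at 0 in 3 libraries. Depth was estimated by taking the most common step among values under 0.1 FPKM, corrected for GENCODE M21 exon length, as 1 fragment, and is approximate.

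Differences were fitted with limma 3.58.1 in R 4.3.3 (lmFit, eBayes with trend, two-sided) on log2(FPKM + 1), a scale that understates the change of low genes, over the 10115 genes averaging 1 FPKM or more, with Benjamini-Hochberg adjustment and a threshold of 0.05. With 2 libraries a label, no exact permutation test can pass. The fit was tested on simulated data. Members and lists were chosen with earlier results of these data known. Named genes were the members, the wider family, up to 4 genes of each other list by smallest p, Sema6d, the 6 genes nearest in profile and the flanking genes. Other names were added for their roles or are marked. Positions and promoters are from RefSeq GRCm38.p6, the assembly that mm10 names. Values of a few named genes are not reported here, although counts and sums over lists include them.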

Additional observations from a re-analysis of the deposited data

How the results depend on the processing

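With all 4 libraries in the fit, 6 members were lower under pseudocounts of 0.1 and 5, a mean of at least 5 FPKM (which removes Gbp6, Gbp7 and Iigp1), median-of-ratios scaling, quantile normalization and the replicate block, and these were the same 6. Without a filter 4 passed (not Gbp9 and Irgm2), beside 1.69% of genes tested that way. eBayes without trend gave 5 (Gbp7 passed, Gbp9 and Irgm2 did not), beside 327 lower genes among all 10115. Robust estimation gave 7 (Gbp7 in addition), beside 587 lower genes, against 497 with the fit as reported. Leaving out 1 library gave 0 to 4 lower members, and 0 were higher in any setting. Every member difference stayed below 0 in every setting run.

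Over all genes, against 486 higher and 497 lower with the fit as reported, there were 256 and 248 without a filter. eBayes without trend gave 261 and 327, and robust estimation 590 and 587. There were 300 higher under the replicate block, where 337 were lower. Pseudocounts of 0.1 and 5 gave 464 to 494 higher and 477 to 500 lower genes. Median-of-ratios scaling gave 463 and 500, and quantile normalization 403 and 472. A mean of at least 5 FPKM, with fewer genes tested, gave 434 and 433. Leaving out 1 library gave 72 to 276 higher and 87 to 290 lower genes. The libraries share only a number in their titles: deviations of same-numbered libraries from their label's mean had a correlation of -0.0183 over genes, so they were not treated as pairs.

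Signs turned for 9 named genes outside the members, none of which passed with all 4 libraries. Of these, Dcn and Col1a2 were not near 0 in the fit as reported. After quantile normalization the difference was 0.002 for Col1a1 and 0.013 for Lrrc8b. With 1 library left out, differences ranged from -0.268 to 0.237 for Col1a1, -0.59 to 0.147 for Col1a2, -0.993 to 0.144 for Dcn, -0.088 to 0.011 for Dctn4, -0.031 to 0.145 for Gtf2b, -0.113 to 0.106 for Lrrc8b, -0.142 to 0.044 for Zfp62, -0.083 to 0.22 for Zfp692 and -0.233 to 0.351 for Zfp951. The cause was not tested. Among 794 values of 62 named genes outside the members, 107 lost a call and 5 gained one. A fit on 3 libraries has less power to call a difference of the same size. Depth limits Gbp6 and Iigp1 most, at about 36 to 125 fragments a library.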
